A study of Mus musculus with 35 samples.

Results

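The response of the mouse lung to naphthalene at day 5 was compared with the response at day 2, gene by gene, in 24 of the 35 whole-lung RNA libraries of the series. The quantity described is the difference of 2 differences: naphthalene minus untreated at day 5, less naphthalene minus untreated at day 2, on the log2 scale and averaged over 2 genotypes. It is above 0 where a transcript stood higher against untreated lungs at day 5 than at day 2, and below 0 where it stood lower. Libraries were taken by their titles, and there were 8 groups of 3: untreated and naphthalene, day labels 2 and 5, and either RORaf/f (the control genotype, whose Rora alleles can be deleted by Cre) or RORaf/fIl7riCre (the KO genotype, in which Cre is made from the Il7r locus). Both genotypes carry the RORaf/f alleles, and the control label names no Cre, so the KO groups differ from the controls in the Cre allele as well as in Rora. The deletion can only reach cells that make Il7r or descend from such cells, which leaves other lung cells with Rora. The mice were 14 days old by the series text, which gives no age for each day label, and averaging over genotypes leaves 6 mice for each treatment and day.

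Naphthalene is turned into toxic products by the cytochrome P450 enzymes of club cells, the secretory cells of the small airways, and kills them. Surviving club cells and their progenitors then divide and restore both club cells and multiciliated cells, the cells whose beating cilia clear mucus. A cell that becomes multiciliated first makes a short-lived set of regulators that amplify centrioles. Among them, Gmnc and Mcidas are coiled-coil proteins that work with E2F transcription factors, and Ccno and Deup1 act in building the many basal bodies. The genes of the axoneme, the motor and scaffold of the cilium, are switched on later and stay on. In whole lung, fewer cells of a type and less RNA per cell cannot be told apart.

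The 24 libraries held 10.7 to 20 M counts (median 16.19 M), so that 1 read was worth 0.0487 to 0.0886 CPM (counts relative to a library size of 1 M reads). Lung identity was present in all of them, with Sftpc, the surfactant protein C of alveolar type 2 cells, at 4850 to 20900 CPM and Ager of type 1 cells at 1220 to 3040 CPM. Rora was read at 32.1 to 53.4 CPM in the 12 control libraries and 25.2 to 64.0 CPM in the 12 KO libraries, and counts summed over the gene do not show a deletion in a rare cell type. One untreated day 5 control library, replicate 1, held the microglial transcript P2ry12 at 159 CPM, against 1.11 to 3.92 CPM in the other 23 libraries, and the 10 microglial markers summed to 817 CPM there against 177 to 522 CPM. Results below are therefore also given without it where the call changes. Library names carry a letter whose meaning is not stated: the 6 naphthalene day 2 libraries have a, 5 of 6 naphthalene day 5 libraries have b, 4 of 6 untreated libraries of day 2 have k and 4 of 6 of day 5 have f. Each letter occurs at a single treatment and day in these 24 libraries. Differences between treatments or days therefore cannot be told apart from differences between letters. Haemoglobin transcripts took 0.175% to 0.308% of the naphthalene day 2 libraries and 0.302% to 1.49% of the other libraries, and their part in the results was not tested. Y-linked Ddx3y exceeded Xist in 3 of 6 untreated and 2 of 6 naphthalene libraries at day 2, and in 3 of 6 and 4 of 6 at day 5.

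Of 20606 genes tested, 138 had a different naphthalene effect at day 5 than at day 2 (0.67%, edgeR quasi-likelihood test, adjusted p under 0.05), 93 higher (0.451%) and 45 lower (0.218%). The change was at least 2-fold in 84 of the higher and 38 of the lower genes. Over all genes tested the median was 0.0056 on the log2 scale, and 50.6% lay above 0. For every gene list below, the background in the difference is 0.451% called higher and 0.218% called lower. The difference had the same sign in both genotypes for 137 of the 138 genes. They were selected on the average over both genotypes, which favours the same sign. In control and KO mice alone, 31 and 10 of them were called. In most of the 138 genes the naphthalene effect was called at day 2 and not at day 5. The difference contains the day 2 effect with its sign reversed, so selection on it favours such genes. A missing call at day 5 does not show a return to the untreated level. In some of these genes the change lay mainly in the untreated mice, as described below. In 78 genes the day 2 effect was itself called lower and the difference higher, and 66 of these were not called in either direction at day 5. In 42 genes the day 2 effect was called higher and the difference lower, and 35 of these were not called at day 5. A further 13 genes had no called effect at day 2 and a called increase at day 5, and 2 had a called decrease at day 5 only. By themselves the naphthalene effects comprised 2040 called genes at day 2 (9.9%) and 1476 at day 5 (7.16%), fitted on the same libraries as the difference. The count of 138 was 143 without the library that held P2ry12, and 113 genes were shared. It moved by more than 1.5 times when any of 12 other libraries was left out. It was 67 without naphthalene day 2 KO replicate 3, 70 without naphthalene day 2 control replicate 2 and 85 without naphthalene day 2 KO replicate 1. It was 84, 82 and 88 without naphthalene day 5 control replicates 1 and 2 and KO replicate 2. It was 72 and 81 without untreated day 2 control replicates 1 and 2, and 67 without untreated day 2 KO replicate 2. It rose to 463 without naphthalene day 2 KO replicate 2, 384 without untreated day 2 KO replicate 1 and 553 without untreated day 2 control replicate 3, the latter 2 being the untreated day 2 libraries with the letter n.

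**Figure D1:**
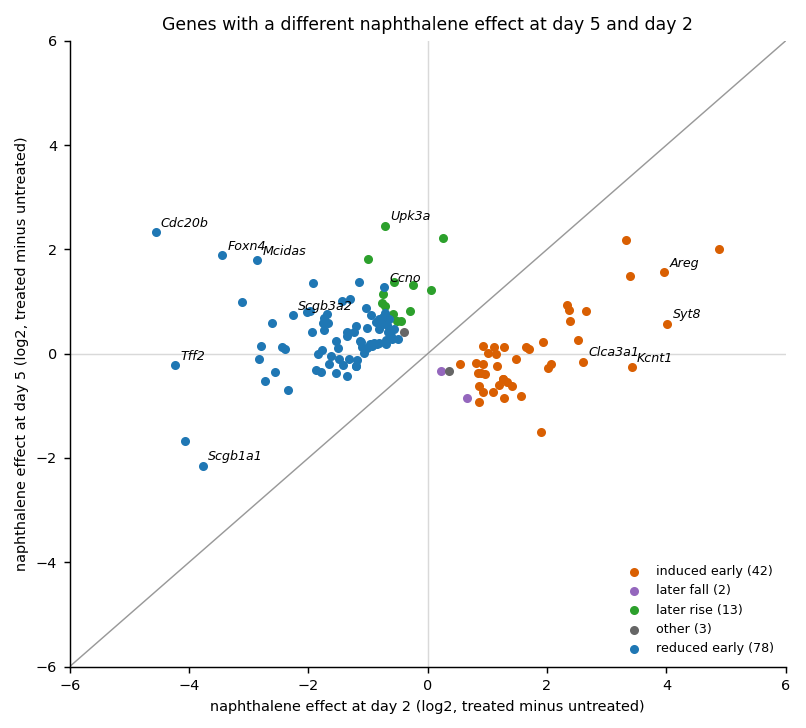
Naphthalene effect at day 2 (x axis) and at day 5 (y axis), both as log2 of treated over untreated averaged over genotypes, for the 138 called genes; the grey diagonal marks equal effects, and colours give the class of each gene with its number. The 78 genes reduced early lie above the diagonal at the left, the 42 induced early lie below it at the right, and Cdc20b, Foxn4, Mcidas and Ccno lie below 0 at day 2 and above 0 at day 5.

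The 3 largest increases belonged to regulators of multiciliated cell formation, Cdc20b, Foxn4 and Mcidas. Mcidas (multicilin), Ccno (cyclin O) and Cdc20b follow one another on mouse chromosome 13 in the RefSeq GRCm38.p6 annotation, and all 3 went from below untreated at day 2 to above it at day 5, as did Foxn4, a forkhead factor of multiciliated cells encoded elsewhere. The protein-coding genes on either side did not pass the test: Dhx29 before Ccno changed by 0.26 ± 0.18 (log2, SE, adjusted p = 0.568) and Gpx8 after Cdc20b by 0.18 ± 0.16 (adjusted p = 0.669). These flanking genes were chosen after their values were seen. The sequences below are the 4 windows of 250 bases before the RefSeq start site (GRCm38.p6, which is not the build of the deposited counts), shown because these 4 genes carry the finding. They lie at chr13:112987552-112987801, chr13:112993618-112993867 and chr13:113035129-113035378 on the plus strand and at chr5:114273762-114274011 on the minus strand, and are written 5′ to 3′. Capitals mark GCGGGA or its reverse complement TCCCGC, a core shared by E2F binding sites.
Ccno: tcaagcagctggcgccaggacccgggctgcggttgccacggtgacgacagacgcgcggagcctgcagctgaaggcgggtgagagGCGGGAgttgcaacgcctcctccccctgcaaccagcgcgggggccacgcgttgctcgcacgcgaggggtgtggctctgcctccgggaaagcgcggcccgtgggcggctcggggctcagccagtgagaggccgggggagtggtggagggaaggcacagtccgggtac
Mcidas: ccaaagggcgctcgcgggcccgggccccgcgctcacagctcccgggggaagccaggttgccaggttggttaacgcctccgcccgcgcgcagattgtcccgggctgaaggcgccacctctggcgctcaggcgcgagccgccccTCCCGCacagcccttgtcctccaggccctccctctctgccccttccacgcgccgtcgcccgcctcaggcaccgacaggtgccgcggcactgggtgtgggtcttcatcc
Cdc20b: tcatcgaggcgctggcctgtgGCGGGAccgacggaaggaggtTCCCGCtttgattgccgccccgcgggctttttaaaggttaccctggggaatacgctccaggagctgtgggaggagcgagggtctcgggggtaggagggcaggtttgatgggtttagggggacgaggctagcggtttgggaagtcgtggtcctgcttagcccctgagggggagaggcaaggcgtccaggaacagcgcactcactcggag
Foxn4: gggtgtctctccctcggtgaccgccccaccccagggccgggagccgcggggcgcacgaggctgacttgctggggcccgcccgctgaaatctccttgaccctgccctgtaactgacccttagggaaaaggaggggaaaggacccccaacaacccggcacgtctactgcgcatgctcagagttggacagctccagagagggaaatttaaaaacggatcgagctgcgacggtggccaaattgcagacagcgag

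The core starts 166 bases before the start site of Ccno, 108 bases before that of Mcidas, and 229 and 208 bases before that of Cdc20b, and these letters are not in the Foxn4 window. They occur on either strand in 16.9% of the 32851 windows of this length in the table. Of the multiciliogenesis regulators, 12 had a window, and 8 of these held the core in at least 1 of their windows. Only 3 of the called regulators held it. These are counts of genes and the 16.9% is a share of single windows, so they cannot be compared directly. A match is a description of the letters only.

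Mcidas, the coactivator that starts centriole amplification, ran from 0.985 to 2.29 CPM (median 1.44) in untreated lungs at day 2 and from 0 to 0.398 CPM (median 0.215) after naphthalene. At day 5 it ran from 0.533 to 1.3 CPM (median 0.894) in untreated lungs and from 1.96 to 4.3 CPM (median 3.31) after naphthalene. The treated and untreated libraries did not overlap at either day, and their order was opposite. The effect was -2.86 ± 0.40 at day 2 (log2, SE, adjusted p = 6.7e-06) and 1.79 ± 0.32 at day 5 (adjusted p = 0.000663), a difference of 4.64 ± 0.51 (adjusted p = 2.11e-06).

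Cdc20b, host gene of a microRNA cluster of multiciliated cells, was nearly silent at day 2 after naphthalene, with 2 reads in 6 libraries against 64 in untreated lungs. At day 5 it had 228 reads after naphthalene (0.713 to 3.3 CPM, median 2.1) and 41 reads in untreated lungs (0.141 to 0.716 CPM, median 0.403). Pooled over 6 libraries, its CPM after naphthalene was 110-fold higher at day 5 than at day 2 (exact 95% interval 30.2 to 917, counting error only), and 5.13-fold that of untreated lungs at day 5 (3.66 to 7.34). The fitted difference was called (adjusted p = 2.11e-06). Foxn4 had 9 reads over the 6 naphthalene libraries of day 2 and 99 in untreated lungs, then 219 and 55 at day 5. Its pooled CPM after naphthalene was 23.6-fold higher at day 5 than at day 2 (12.2 to 52.2), and its fitted difference had the smallest adjusted p of all genes tested (9.28e-07).

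Ccno, needed for the multiplication of basal bodies, ran from 2.39 to 6.4 CPM (median 4.96) untreated and 2.23 to 4.25 CPM (median 2.75) treated at day 2. At day 5 the ranges were 2.47 to 4.27 CPM (median 3.05) and 5.17 to 10.3 CPM (median 8.18). The groups overlapped at day 2 and every treated library was above every untreated one at day 5, with a difference of 2.01 ± 0.28 (log2, SE, adjusted p = 0.000103). Gmnc, which acts before Mcidas, fell by 2.56 on the log2 scale at day 2 (median 0.2 against 1.18 CPM) and at day 5 had medians of 0.689 CPM treated and 0.953 CPM untreated, an effect of -0.35 ± 0.32 (adjusted p = 0.508). Its difference of 2.21 ± 0.51 was called (adjusted p = 0.0302), and unlike the 4 genes above it did not pass the test above untreated at day 5. The Gmnc call was lost on the letters a, b, f and k alone (adjusted p = 0.0692) and held in 16 of 24 fits with 1 library left out. Leaving Gmnc aside, 4 regulators of the list were called with all libraries. On the letters a, b, f and k alone, 5 regulators of the list were called. Crocc2, a relative of the ciliary rootlet protein rootletin, ran from 4.45 to 8.9 CPM at day 2 and from 18.1 to 25 CPM at day 5 after naphthalene, against at most 12.8 CPM in untreated lungs, with a difference of 1.93 ± 0.27 (adjusted p = 0.000145). Ccna1, a cyclin chosen after its values were seen, had the same course, with treated medians of 0.483 CPM at day 2 and 4.38 CPM at day 5 against untreated medians of 1.75 and 1.72 CPM, and a difference of 3.28 ± 0.39 (adjusted p = 7.02e-06).

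Over the whole list of multiciliogenesis regulators, 5 of 13 rose in the difference (background 0.451%), none fell and the median was 0.79, against 0.0056 over all genes tested. Myb missed the threshold with all libraries (0.79 ± 0.23, adjusted p = 0.093) and passed it without the library that held P2ry12 (adjusted p = 0.0467), which made 6 of 13. Deup1, which builds the deuterosome where new centrioles form, had an effect of 0.02 at day 2 and 1.16 at day 5, and its difference of 1.13 ± 0.35 did not pass the test (adjusted p = 0.124). Foxj1, the master factor of motile cilia and the most abundant member, took another course: it ran from 80.2 to 150 CPM after naphthalene at day 2 and from 58.2 to 157 CPM at day 5, above every untreated library of either day (at most 51.3 CPM). Its difference was -0.28 ± 0.37 (adjusted p = 0.774). Rfx2, second in abundance, changed by -0.32 ± 0.23 (adjusted p = 0.565).

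**Figure D2:**
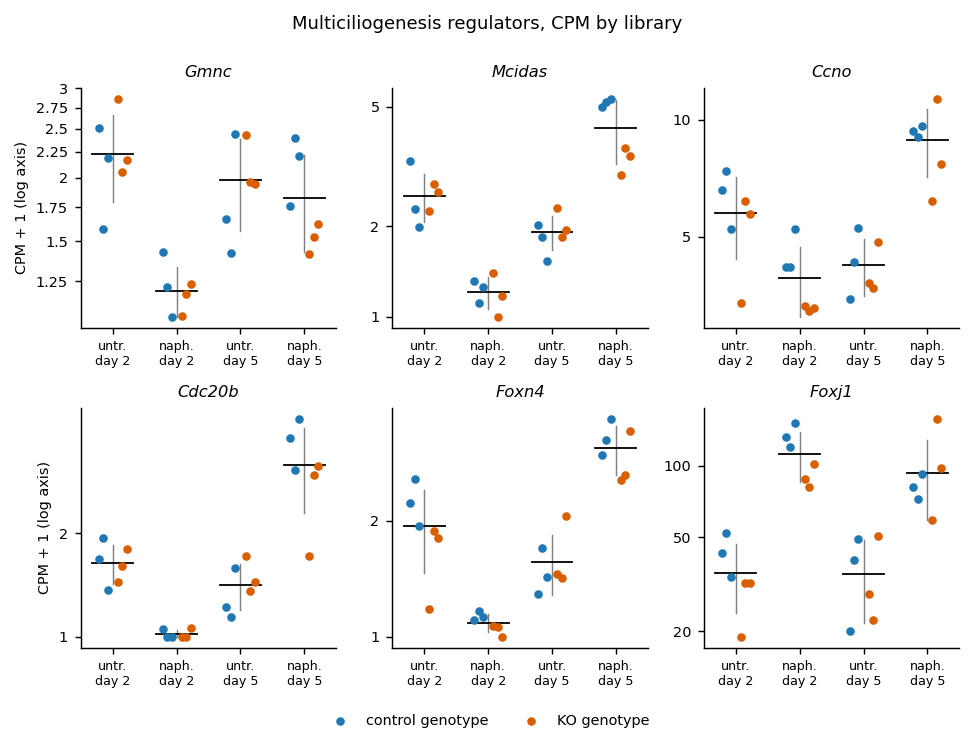
CPM + 1 on log axes for 6 regulators of multiciliated cells in the 24 libraries, by treatment and day, with 1 point per library coloured by genotype, the mean of 6 as a black line and its SD as a grey bar. Mcidas, Cdc20b and Foxn4 are lowest at day 2 after naphthalene and highest at day 5 after naphthalene, while Foxj1 is above untreated lungs at both days.

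The structural genes of the cilium followed Foxj1 rather than the regulators in their values. Of 24, 18 were called higher at day 2 (background 5.6%) and 15 at day 5 (background 4.34%), and none was called lower at either day. None passed the test in the difference, and 21 lay below 0, with a median of -0.40. The lowest values belonged to Lrriq1 (-1.10 ± 0.64, adjusted p = 0.47) and the outer arm dynein heavy chain Dnah5 (-1.06 ± 0.31, adjusted p = 0.0981), and the highest to Tubb4b, a tubulin (0.47 ± 0.25, adjusted p = 0.428), and Tppp3 (0.35 ± 0.21, adjusted p = 0.481), the most abundant members. Differences between the 2 lists were not tested.

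Of the 9 club cell transcripts that were called lower at day 2, 5 rose in the difference, to different degrees. Of 18 genes, 9 were called lower (background 4.3%) and 3 higher at day 2, and 3 lower (background 2.82%) and 1 higher at day 5. In the difference 5 rose (background 0.451%) and none was called lower, 6 lay below 0, and the list median was 0.20. Scgb1a1, the main secretoglobin of club cells, fell from 5200 to 8640 CPM in untreated lungs at day 2 (median 6490) to 376 to 740 CPM (median 441). At day 5 the ranges were 6740 to 10200 CPM (median 8750) untreated and 1720 to 2490 CPM (median 1830) treated. Treated libraries remained below all untreated ones at both days, with effects of -3.77 ± 0.21 and -2.15 ± 0.19 and a difference of 1.62 ± 0.26 (log2, SE, adjusted p = 0.000977). Scgb3a2, a second secretoglobin, ran from 34.5 to 177 CPM (median 73.1) at day 2 after naphthalene and from 539 to 887 CPM (median 704) at day 5. Untreated lungs held 245 to 559 CPM (median 410) and 333 to 600 CPM (median 389), so that treated libraries were all below the untreated at day 2 and overlapped with them at day 5, where the effect of 0.73 ± 0.25 was not called (adjusted p = 0.0648). Its difference of 3.00 ± 0.36 had an adjusted p of 7.08e-06.

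Chad, which encodes chondroadherin and is made by club cells, had treated medians of 2.48 CPM at day 2 and 16 CPM at day 5 against untreated medians of 16.2 and 14.4 CPM (difference 2.57 ± 0.36, adjusted p = 0.000123). Cyp2f2, the P450 that activates naphthalene in mouse club cells, ran from 148 to 228 CPM at day 2 and from 298 to 539 CPM at day 5 in treated lungs, against 342 to 605 and 411 to 673 CPM in untreated lungs. The groups were apart at day 2 and overlapped at day 5, with a difference of 1.16 ± 0.27 (adjusted p = 0.0345). Gabrp, a GABA receptor subunit, changed by 0.95 ± 0.22 (adjusted p = 0.0349). Both lost the call without the library that held P2ry12 (adjusted p = 0.0573 and 0.0545), which left 3 of 18. Cbr2, a carbonyl reductase and the most abundant member after Scgb1a1, changed by 0.21 ± 0.24 (adjusted p = 0.74).

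In the airway host defence list 2 of 15 tested genes rose in the difference (background 0.451%) and none fell (median 0.63). Tff2, a trefoil peptide of mucous secretions, was at 0 to 0.904 CPM at day 2 after naphthalene and at 1.13 to 9.98 CPM at day 5, against 1.95 to 10.3 and 2.81 to 9.49 CPM in untreated lungs. Treated libraries were below all untreated ones at day 2 and spread across them at day 5 (difference 4.01 ± 0.84, adjusted p = 0.0186). Lypd2, a surface protein of airway secretory cells, had treated medians of 2.45 and 13.6 CPM and untreated medians of 20.1 and 21.9 CPM at days 2 and 5 (difference 2.21 ± 0.43, adjusted p = 0.0109). Other members were above untreated at both days: Cxcl17, a mucosal chemokine, had effects of 3.94 and 3.21 and a difference of -0.74 (adjusted p = 0.449), and the mucin Muc4 had effects of 2.28 and 1.68 and a difference of -0.60 (adjusted p = 0.229). Wfdc2 and Muc1, the most abundant members, changed by 0.17 ± 0.27 (adjusted p = 0.818) and 0.79 ± 0.37 (adjusted p = 0.358). Among 9 goblet cell genes tested only Creb3l1, an endoplasmic reticulum transcription factor, passed (1.38 ± 0.32, adjusted p = 0.0364), and it did not without the library that held P2ry12 (adjusted p = 0.0537). The gel-forming mucin Muc5b had a value of 2.40 ± 0.65 (adjusted p = 0.0806).

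**Figure D3:**
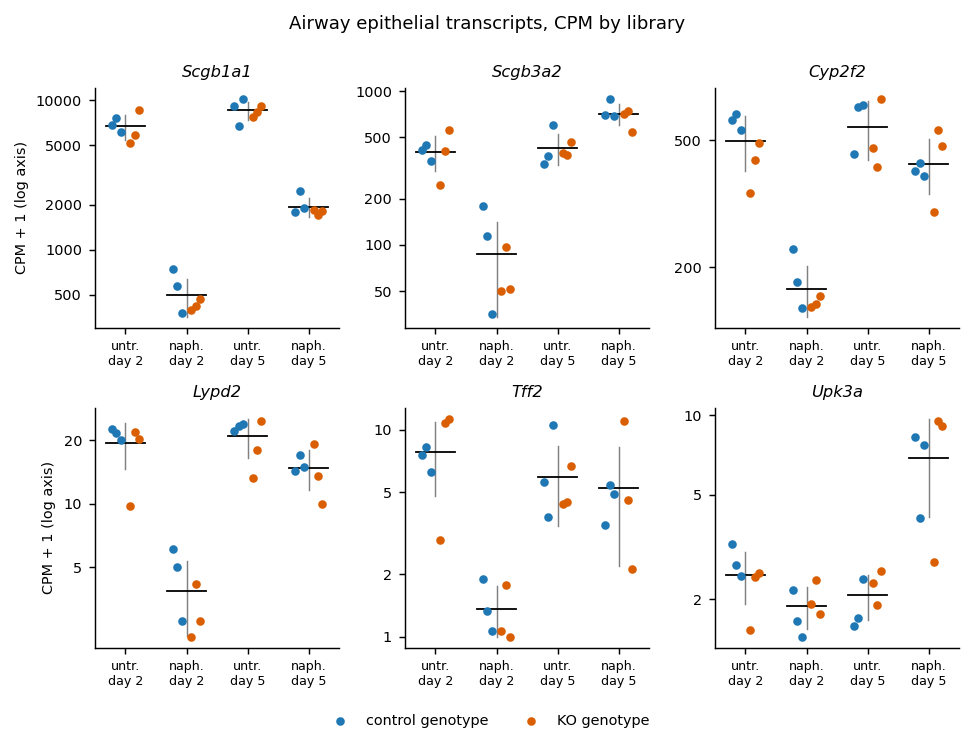
CPM + 1 on log axes for 6 epithelial transcripts in the 24 libraries, by treatment and day, with 1 point per library coloured by genotype, the mean of 6 as a black line and its SD as a grey bar. Scgb1a1 at day 5 lies between its treated day 2 and untreated levels, Scgb3a2, Cyp2f2, Lypd2 and Tff2 overlap with untreated lungs at day 5, and Upk3a in every naphthalene library of day 5 is above all untreated libraries of that day.

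Markers of rarer airway cells also changed. Uchl1, a ubiquitin hydrolase of neuroendocrine cells, had treated medians of 16.9 CPM at day 2 and 8.12 CPM at day 5 against untreated medians of 9.51 and 10.5 CPM and fell by 0.98 in the difference (adjusted p = 0.0186). Cplx2, the most abundant gene of the neuroendocrine list, changed by 0.21 ± 0.20 (adjusted p = 0.685). Atp6v1b1, a proton pump subunit of ionocytes, rose by 3.20 ± 0.52 (adjusted p = 0.000977), with treated medians of 0.288 and 2.23 CPM and untreated medians of 2.12 and 1.34 CPM. It was the only one of 9 ionocyte and tuft cell genes tested that passed, and Atp6v1c2, the most abundant, changed by 0.22 ± 0.13 (adjusted p = 0.483) and Cftr by -0.30 ± 0.25 (adjusted p = 0.621).

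A group of growth factor, protease inhibitor and membrane genes was high at day 2 and had largely subsided at day 5. Areg (amphiregulin), a ligand of the epidermal growth factor receptor, ran from 31.9 to 43.9 CPM (median 42.3) at day 2 after naphthalene against 1.38 to 4.16 CPM (median 2.36) in untreated lungs. At day 5 it ran from 8.67 to 20.2 CPM (median 11.9) against 3.51 to 6.5 CPM (median 4.09). Every treated library was above every untreated one at both days, and the effect went from 3.96 ± 0.29 to 1.56 ± 0.27, a difference of -2.40 ± 0.38 (log2, SE, adjusted p = 0.000818). Nrg1 (neuregulin, a ligand of the related ErbB receptors) had treated medians of 10.9 and 4.68 CPM against 2.24 and 2.91 CPM and fell by 1.39 (adjusted p = 0.0169). Of 10 ligands and receptors tested these 2 fell (background 0.218%) and none rose (median -0.31). Ereg (epiregulin) had larger effects, 5.06 at day 2 and 3.60 at day 5, and its difference of -1.46 ± 0.64 did not pass (adjusted p = 0.317). Hbegf and the receptor Erbb2, the most abundant members, changed by -0.58 ± 0.16 (adjusted p = 0.0688) and -0.02 ± 0.17 (adjusted p = 0.968).

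Syt8, a synaptotagmin, was at 3.73 to 9.96 CPM (median 7.07) at day 2 after naphthalene and at 0.364 to 1.74 CPM (median 0.635) at day 5, against at most 0.674 and 0.913 CPM in untreated lungs. The groups were apart at day 2 and overlapped at day 5, with a difference of -3.44 ± 0.51 (adjusted p = 0.000297). Clca3a1, of the family of chloride channel accessory proteins, had treated medians of 14.0 and 1.79 CPM against 2.28 and 2.4 CPM (difference -2.76 ± 0.43, adjusted p = 0.000669). Kcnt1, a sodium-activated potassium channel, had the largest decrease of the genes named by rule, -3.68 ± 0.77 (adjusted p = 0.0169), with 0.722 to 13.2 CPM at day 2 and at most 1.01 CPM at day 5 in treated lungs. Its treated libraries overlapped with the untreated at both days. Lamc3, a laminin chain of basement membranes, ran from 24.7 to 84.0 CPM at day 2 and 16.6 to 34.8 CPM at day 5 after naphthalene, with untreated lungs at 7.44 to 19.7 CPM over both days (difference -1.75 ± 0.32, adjusted p = 0.00587). Atg9b, an autophagy scramblase, went from a treated median of 7.93 to 2.25 CPM against 0.651 and 0.746 CPM (difference -1.91 ± 0.39, adjusted p = 0.0131). It was still called higher at day 5, as were Areg and Nrg1.

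Other decreases named by rule ranged from -1.72 to -2.38 on the log2 scale. Pla1a (a phospholipase), Myrip (a myosin and Rab binding protein), Aspg (an asparaginase) and Wfdc8 and Eppin (WAP-domain protease inhibitors) had differences of -2.26, -1.84, -2.13, -1.88 and -2.38. Scel (sciellin, of the cornified envelope) was called higher at day 2 (0.86) and lower at day 5 (-0.92), a difference of -1.78 ± 0.35 (adjusted p = 0.0111). In 3 of the named decreases the untreated mice supplied the larger share of the difference. Spp1 (osteopontin) had untreated medians of 5.62 CPM at day 2 and 20 CPM at day 5 and treated medians of 38.1 and 19 CPM (difference -2.26 ± 0.48, adjusted p = 0.0186). Slc13a4, a sulfate transporter, changed by 1.22 in untreated and -1.06 in treated mice. Ms4a4d, of the membrane-spanning family A, changed by 1.20 in untreated mice (adjusted p = 0.0486) and -0.53 in treated mice (adjusted p = 0.277).

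**Figure D4:**
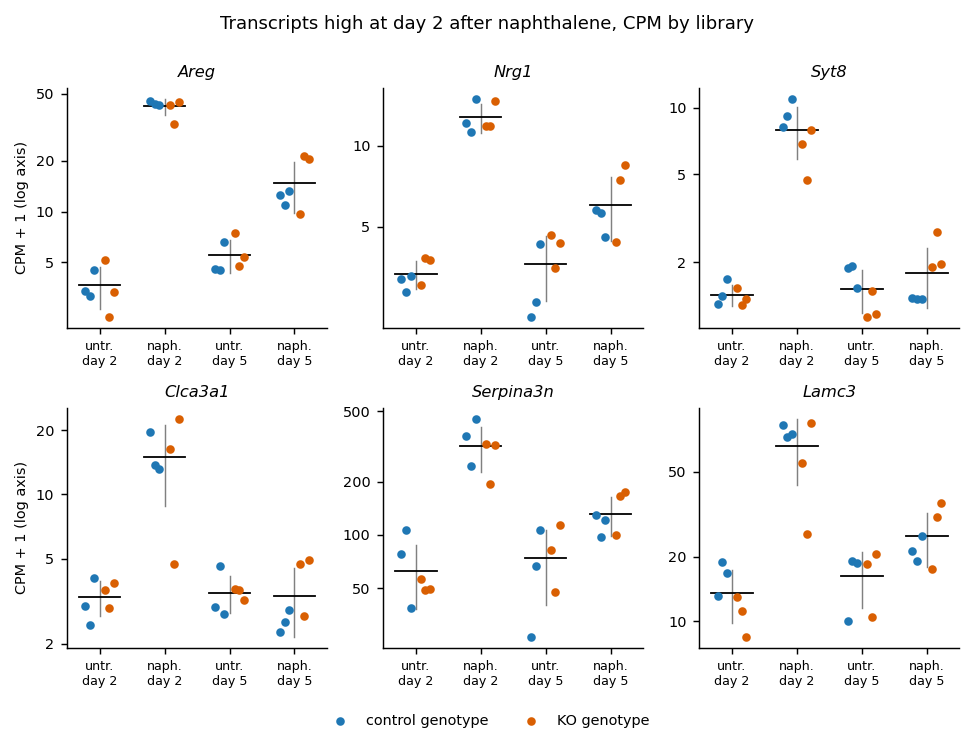
CPM + 1 on log axes for 6 transcripts that were higher at day 2 after naphthalene, by treatment and day, with 1 point per library coloured by genotype, the mean of 6 as a black line and its SD as a grey bar. Syt8 and Clca3a1 overlap with untreated lungs at day 5, while Areg is above all untreated libraries at both days.

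Genes linked to injured epithelium and to the acute phase moved less uniformly. Anxa1 (annexin A1) had treated medians of 259 CPM at day 2 and 136 CPM at day 5 against 121 and 134 CPM untreated and fell by 0.99 in the difference (adjusted p = 0.0121). Sox4, a transcription factor of the same list, had medians of 81.5 and 108 CPM against 184 and 119 CPM and rose by 1.08 ± 0.23 (adjusted p = 0.0186). The other 14 of 16 tested genes of the list did not pass, with Krt7 at -0.20 ± 0.18 and Anxa3 at -0.58 ± 0.24 as the most abundant. In the acute phase list 2 of 15 fell (background 0.218%), Serpina3n and Orm1. Serpina3n, a serpin induced in inflammation, had treated medians of 324 and 124 CPM against 51.8 and 73.1 CPM (-1.53 ± 0.36, adjusted p = 0.0355). Orm1 (orosomucoid) had 5.47 and 0.851 CPM against 0.127 and 0.28 CPM (-2.88 ± 0.68, adjusted p = 0.0386). Orm1 lost the call without the library that held P2ry12 (adjusted p = 0.13). Hp (haptoglobin) and Stat3, the most abundant members, changed by 0.22 ± 0.28 and -0.15 ± 0.16.

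A smaller group of genes was near untreated at day 2 and higher at day 5. Upk3a, a uroplakin of urothelium and of a club cell subset, was at 0.444 to 1.38 CPM at day 2 and at 1.78 to 8.49 CPM (median 6.99) at day 5 after naphthalene, against at most 2.24 and 1.56 CPM in untreated lungs. All 6 treated libraries of day 5 were above all untreated ones of that day (difference 3.17 ± 0.48, adjusted p = 0.000478). It alone passed among 10 mesothelial and uroplakin genes, with Upk1b and Msln, the most abundant, at -0.27 ± 0.20 and -0.77 ± 0.32. Scd1, the desaturase that makes monounsaturated fatty acids, ran from 387 to 894 CPM (median 586) at day 2 and from 651 to 2720 CPM (median 2130) at day 5 after naphthalene, against 196 to 696 and 234 to 669 CPM (difference 1.98 ± 0.39, adjusted p = 0.0117). It was the only one of 29 tested genes of fatty acid and cholesterol synthesis that passed (list median 0.03), and its relative Scd2 changed by 0.61 ± 0.30 (adjusted p = 0.397). Apln (apelin), a peptide of endothelial tip cells, was not of this group. It had been low at day 2 (treated median 40.2 against 154 CPM) and had medians of 153 and 132 CPM at day 5 (difference 1.77 ± 0.33, adjusted p = 0.00685). Its effect at day 5 was 0.24 ± 0.23 and was not called (adjusted p = 0.531). None of the other 16 endothelial genes passed, with Cdh5 at 0.19 ± 0.20 and Cldn5 at 0.15 ± 0.29.

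Of 29 interferon-stimulated genes, 17 were called lower at day 2 (background 4.3%) and 1 at day 5 (background 2.82%). In the difference 26 lay above 0 (median 0.54), against 50.6% of all genes tested, and 3 rose (background 0.451%). Without the library that held P2ry12, 4 rose, and on the letters a, b, f and k alone 7 rose. Isg15, a ubiquitin-like protein, had treated medians of 5.41 and 14.9 CPM against 16.5 and 15.2 CPM (difference 1.40 ± 0.28, adjusted p = 0.0115). Rtp4 rose by 0.96 ± 0.18 (adjusted p = 0.00685) and Ifi27l2a by 1.60 ± 0.34 (adjusted p = 0.0185), while Stat2 and Bst2, the most abundant, changed by 0.07 ± 0.26 and 0.78 ± 0.23 without passing. Cxcl10, an interferon-induced chemokine, rose by 2.44 ± 0.59 (adjusted p = 0.0412), and it did not pass without the library that held P2ry12 (adjusted p = 0.063). None of the other 10 CXC chemokines tested passed. Natural killer cell genes had 12 of 13 values above 0 and a median of 1.02, and none passed in the difference. In treated mice alone 7 of the 13 rose from day 2 to day 5 (background 2.68%). Gzma (granzyme A) changed by 1.18 ± 0.42 (adjusted p = 0.199) and Nkg7 by 0.64 ± 0.31 (adjusted p = 0.377).

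Neutrophil genes lay on the other side. Of 14 tested, 13 were below 0 with a median of -1.02, where 50.6% of all genes tested lay above 0. None passed in the difference. In treated mice alone 8 fell from day 2 to day 5 (background 2.27%). S100a9, a calcium-binding protein of neutrophils, ran from 39.7 to 201 CPM (median 149) at day 2 and from 22.3 to 53.6 CPM (median 42.0) at day 5 after naphthalene, but untreated lungs of day 2 also reached 131 CPM, and the difference was -1.08 ± 0.55 (adjusted p = 0.409). Csf3r changed by -1.06 ± 0.36 (adjusted p = 0.171). All 18 genes of DNA replication and 19 of 22 of G2 and mitosis lay above 0, against 50.6% of all genes tested. Their medians were 0.52 and 0.68, and none passed. The most abundant were Pcna (0.38 ± 0.22, adjusted p = 0.457) and Mcm7 (0.29 ± 0.15, adjusted p = 0.431), and Top2a (1.06 ± 0.44, adjusted p = 0.283) and Ube2c (1.06 ± 0.34, adjusted p = 0.139).

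The difference is the change from day 2 to day 5 in treated mice less that in untreated mice, so either can produce it. From day 2 to day 5, 1019 genes changed in treated mice (4.95%) and 98 in untreated mice (0.476%), of which 20 rose (0.0971%) and 78 fell (0.379%). Of the 93 higher genes, 60 were called higher in treated mice and 19 were called lower in untreated mice, and 14 were called in neither. Of the 45 lower genes, 40 were called lower in treated mice and 1 was called higher in untreated mice, and 4 were called in neither. In 61 of the 93 and 40 of the 45 the treated mice supplied over 50% of the difference.

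**Figure D5:**
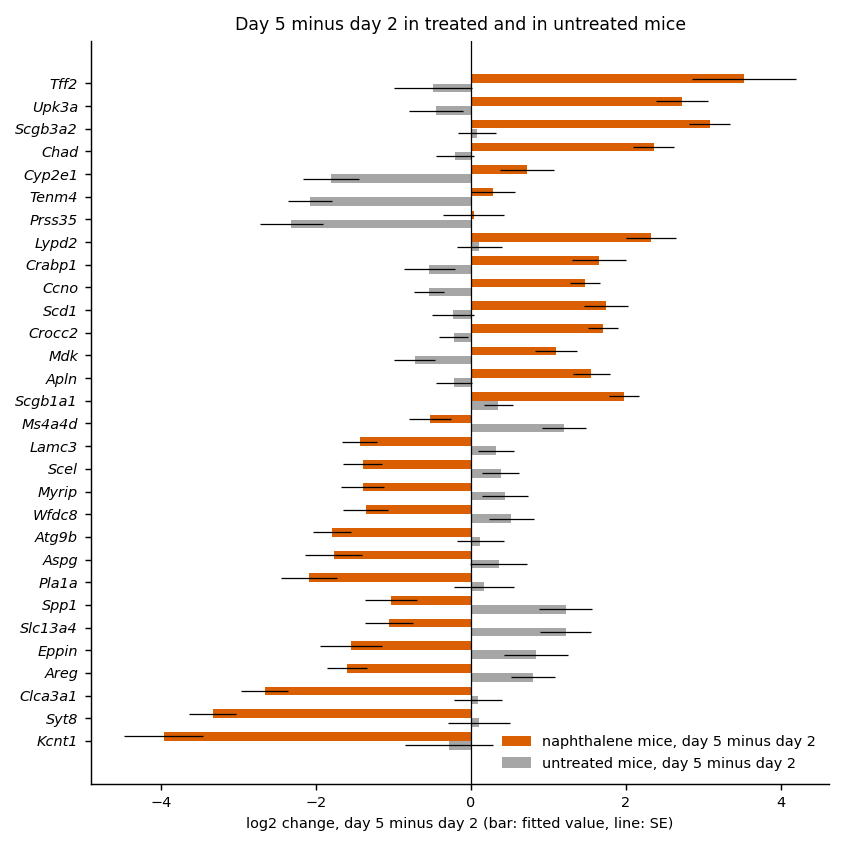
Change from day 2 to day 5 in naphthalene mice (orange) and in untreated mice (grey) for the 30 genes named by rule, as fitted log2 values averaged over genotypes with SE; the difference described is the orange value minus the grey one. In Tenm4, Prss35 and Cyp2e1 the untreated bar is the longer, and in Tff2, Scgb3a2, Syt8 and Clca3a1 the treated bar is.

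In several matrix and mesenchymal genes the untreated mice contributed much of the difference. Tenm4, a teneurin adhesion protein, had untreated medians of 14.5 CPM at day 2 and 2.55 CPM at day 5 and treated medians of 3.0 and 3.79 CPM (difference 2.36 ± 0.40, adjusted p = 0.00228). Its change was -2.08 ± 0.29 in untreated mice (adjusted p = 0.00045) and 0.28 ± 0.29 in treated mice (adjusted p = 0.635). The 6 untreated day 2 libraries split by letter in Tenm4: the 4 with k were at 14.4 to 16.1 CPM and the 2 with n at 3.81 and 4.04 CPM, close to the other groups. Prss35, a trypsin-like protein, changed by -2.32 in untreated and 0.03 in treated mice, and Cyp2e1, a cytochrome P450, by -1.81 and 0.72; their differences were 2.35 ± 0.56 (adjusted p = 0.0414) and 2.53 ± 0.50 (adjusted p = 0.0115). In untreated day 2 lungs Prss35 was at 14.6 to 23.9 CPM with k and at 3.94 and 6.02 CPM with n, and Cyp2e1 at 22.2 to 29.7 CPM and at 9.54 and 10.8 CPM. In untreated mice no letter occurs at both days, so a change between days cannot be told apart from one between letters. The split between k and n lies within day 2. On the letters a, b, f and k alone, which leaves out the n libraries, the differences were 2.65, 2.52 and 2.91 for Tenm4, Prss35 and Cyp2e1. The n libraries hold the low untreated day 2 values, so leaving them out tends to enlarge these differences. This fit is therefore no check on the letter. Among fibroblast genes 2 of 19 rose (background 0.451%), Col3a1 and Col14a1. Col3a1 (collagen III) had untreated medians of 2440 CPM (1060 and 1830 CPM in the 2 n libraries, at least 2430 CPM in the others) and 1380 CPM. Its treated medians were 1280 and 2060 CPM, with a difference of 1.33 ± 0.32 (adjusted p = 0.045). Col14a1 changed by 1.34 ± 0.29 (adjusted p = 0.0205). Col3a1 did not pass without the library that held P2ry12 (adjusted p = 0.0741). Inmt, the next most abundant, changed by -0.88 ± 0.23 (adjusted p = 0.0622).

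Of the other collagens 1 of 12 rose (background 0.451%), Col6a3 (0.96 ± 0.22, adjusted p = 0.0274), while 11 lay above 0 (median 0.53). The basement membrane collagens Col4a1 and Col4a2, the most abundant, changed by 0.20 ± 0.30 and 0.19 ± 0.33. Mmp14, a membrane-bound collagenase, rose by 1.09 ± 0.27 (adjusted p = 0.0498) as 1 of 13 proteases and inhibitors tested, with Timp2 at 0.47 ± 0.27 and Adamts1 at -0.14 ± 0.34. In smooth muscle and myofibroblasts, Hhip (hedgehog interacting protein, 0.89 ± 0.21, adjusted p = 0.038) and Mustn1 (1.14 ± 0.24, adjusted p = 0.0144) rose among 14 genes (background 0.451%). The abundant Pdgfrb and Acta2 changed by 0.08 ± 0.16 and 0.14 ± 0.22. Hhip did not pass without the library that held P2ry12 (adjusted p = 0.0628). Mdk (midkine, a heparin-binding growth factor) and Crabp1 (a retinoic acid binding protein) rose by 1.82 ± 0.38 (adjusted p = 0.0174) and 2.19 ± 0.48 (adjusted p = 0.021), and in both the treated change was larger than the untreated one. Heat shock proteins summed to 826 to 1140 CPM in untreated and 866 to 1090 CPM in treated libraries at day 2, and to 905 to 2120 and 1280 to 2210 CPM at day 5. The 2 untreated day 5 libraries with the letter o were at 905 and 970 CPM and the 4 with f at 1700 to 2120 CPM. Of 10 such genes 7 rose in treated mice (background 2.68%) and 5 in untreated mice (background 0.0971%), and none passed in the difference. The part of these letters in the matrix genes was not tested. In the fit on the letters a, b, f and k alone, 133 of the 138 genes kept their call. That fit keeps 1 letter for each treatment and day, so it cannot separate letter from day.

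No gene differed between the genotypes in the day 5 minus day 2 difference by edgeR or by DESeq2 (smallest adjusted p by edgeR 0.778), with 1262 of 20606 genes at an unadjusted p under 0.05. Taken alone, control mice had 41 called genes (0.199%), 26 higher (0.126%) and 15 lower (0.0728%). KO mice had 10 (0.0485%), 9 higher (0.0437%) and 1 lower (0.00485%). Of these, 31 and 10 were among the 138. Mcidas changed by 5.10 in control and 4.19 in KO mice, Ccno by 1.92 and 2.11, Scgb3a2 by 2.69 and 3.31, Scgb1a1 by 1.53 and 1.72, and Areg by -2.59 and -2.22. Syt8 changed by -5.21 in control and -1.66 in KO mice, and Prss35 by 3.59 and 1.11, without a called difference between genotypes.

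Of 60 gene lists, 19 had at least 1 called member and 41 had none, and the 138 genes comprised 36 of the 786 list genes tested and 102 genes outside the lists. Without the library that held P2ry12, the elastic fibre list gained 1 called member, which was lower, and the goblet cell list had none.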

How the data were processed

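The data were gene counts from bulk RNA of whole lung, from Trizol extracts made into libraries with a Watchmaker Genomics mRNA kit per the labels' protocols. The table the authors deposited holds whole-number counts for 57186 genes. The submitters' processing notes name GRCm39 and DESeq2 without a role, and for the aligner, counter and annotation the sources used here give no name. Counting on strand is not stated either, so overlapping antisense genes cannot be told apart. The Nrg1 symbol stands on 2 genes in the table.

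Counts were fitted in R 4.3.3 with edgeR 4.0.16 (filterByExpr on 12 groups, TMM, robust quasi-likelihood, 12 group means over 35 libraries), and contrasts were tested two-sided with Benjamini-Hochberg adjustment over 20606 genes and a threshold of 0.05. CPM were computed with TMM factors, and errors of log2 values are SE. Mice are taken as separate samples; p-values rest on the spread between them. Where a group of 3 libraries had at most 3 reads, pooled CPM ratios have Clopper-Pearson 95% intervals from scipy 1.17.1. Named genes are the 15 largest increases and decreases among those called with and without the P2ry12-rich library, with the same sign in both genotypes, at least 5 CPM in 1 group and a regular symbol; for lists, the called members with the smallest p and the 2 most abundant. The members and lists were chosen with earlier results of these data known. The script was checked on simulated counts. Alternatives were RLE factors, no count filter, DESeq2 1.42.0, a replicate block, fewer libraries and each library left out. Promoter windows are from RefSeq, GRCm38.p6. Some results are not reported here.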

Additional observations from a re-analysis of the deposited data

Results flagged for a closer look

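The naphthalene effect differed between day 5 and day 2 in 138 genes by the test of the difference itself (edgeR quasi-likelihood test, adjusted p under 0.05).

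Day 7 libraries entered the fit for filtering, scaling and dispersion but carried no weight in the difference. At day 7, 3 of the genes named by rule were called higher after naphthalene, and Scgb1a1 was called lower. Upk3a was higher than in untreated lungs by 2.07 on the log2 scale (edgeR adjusted p = 0.00154), Areg by 1.5 (adjusted p = 0.0123) and Crocc2 by 1.05 (adjusted p = 0.0123). At day 7 there were 6 untreated and 5 naphthalene libraries.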

How the results depend on the processing

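No called gene changed sign under any setting. The genes were already called and the settings refit the same or mostly the same libraries, so a change of sign was unlikely beforehand. Of the 138 genes, 55 were called in every setting and 57 with every single library left out, and 20 of the 30 genes named by rule were called in every setting. Of 30 settings, the call held in 29 for Mdk and Spp1, 25 for Crabp1 and Myrip, 19 for Wfdc8, 17 for Pla1a and Ms4a4d, 15 for Prss35 and Eppin and 14 for Aspg. Among list genes it held in 20 for Gmnc, 17 for Gabrp and Hhip, 15 for Creb3l1, 14 for Cyp2f2, Serpina3n, Orm1, Cxcl10 and Col3a1, and 12 for Mmp14. With RLE factors 136 genes were called, and 134 of the 138 were called by DESeq2, which gave no adjusted p for the other 4. Counts for the difference in both genotypes were 695 with no filter on low counts, 89 when only the 24 libraries were fitted, 585 with the letters a, b, f and k only and 391 with DESeq2. In the same order, counts for control mice were 650, 18, 485 and 234. For KO mice they were 130 with no filter, 37 with the 4 letters and 30 with DESeq2. For the difference between genotypes they were 59 with no filter and 18 with the 4 letters, against 0. The effect at day 5 had 2696 calls with no filter and 372 with the 4 letters, the treated change had 1556 with no filter, and the untreated change had 516, 610 and 190 with no filter, the 4 letters and DESeq2. The causes were not tested.

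Leaving out 1 library at a time gave 67 to 553 calls for both genotypes, 5 to 541 for control mice, 3 to 46 for KO mice and 0 to 1 for the genotype difference. It gave 1296 to 2577 for the effect at day 2, 556 to 4073 for that at day 5, 469 to 1344 for treated and 21 to 441 for untreated mice.

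Replicate numbers did not pair the mice: same-numbered libraries had a median correlation of 0.0039, 23 of 84 pairs exceeded 0.1, and 8 of 24 libraries correlated best with their own number. A replicate block gave 148 calls (131 shared) for both genotypes, and 6 instead of 10 for KO mice.

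The number of mice limits the precision, and transcripts with few reads, such as Cdc20b and Foxn4, have wide intervals.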

Other observations

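Scgb1a1 was the only 1 of the 30 genes named by rule that was called lower after naphthalene at day 7, by -1.80 on the log2 scale (edgeR adjusted p = 3.83e-06), against -3.77 at day 2 and -2.15 at day 5. Mcidas and Ccno, which were called higher at day 5, had day 7 effects of 0.50 and 0.33 and were not called. Scgb3a2 had a day 7 effect of 0.81 (adjusted p = 0.3).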
